A study of Penicillium oxalicum with 12 samples.

Results

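In the wild type of *Penicillium oxalicum*, a filamentous fungus that secretes cellulases, 153 genes were high in glucose medium and low in cellulose medium. They are 153 of 9909 genes with a value in any of the libraries. The members were selected on measured values of the wild type (WT), namely a mean of at least 20 FPKM (fragments per kilobase of transcript, scaled to the mapped reads of the library) over the 3 glucose libraries and a mean at least 8-fold lower over the 3 cellulose libraries, with 1 FPKM added to each mean. A total of 5013 genes reached 20 FPKM in WT in glucose. The difference between the media in WT chose the members, so it is described here and was not tested. What the choice did not use are the libraries of the deletion label, and the members are followed there.

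The series holds 12 RNA-seq libraries of mycelium in 4 groups of 3 biological replicates. WT is strain 114-2, and Δ*Podot1* is 114-2 in which the coding region of *Podot1* (PDE_07484), the gene of a histone methyltransferase of the Dot1 family, was replaced by the hygromycin resistance marker *hph*. How many transformants were grown is not given in the sources used here. Both strains were precultured in glucose, moved to fresh medium that held either glucose (2%) or microcrystalline cellulose and wheat bran (1% of each), and harvested after 24 h at 30°C. Wheat bran was added to the cellulose medium alone, so the loss of glucose, the cellulose and the bran cannot be told apart. In bulk mycelium, fewer hyphae that express a gene and less RNA per hypha cannot be told apart either.

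As background, filamentous fungi use glucose first. While it is present, they run glycolysis and biosynthesis at a high rate and keep the genes for plant wall degradation shut by carbon catabolite repression, and growth on cellulose turns this state around. Fast growth on glucose draws on nitrogen uptake, on the fermentation and respiration of pyruvate and on the synthesis of membrane lipids. In other ascomycetes, genes of nitrate use lie side by side and are transcribed together when nitrate is used and ammonium is scarce.

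The labels were checked first. *Podot1* was at 0, 0.10 and 0.19 FPKM in Δ*Podot1* in glucose and at 25.8 to 36.4 FPKM in the 6 WT libraries. The 3 libraries labelled Δ*Podot1* in cellulose were at 33.4, 58.4 and 0 FPKM, so replicates 1 and 2 held *Podot1* reads against their label and replicate 3 did not. The medium was checked by 10 glycoside hydrolase genes of the secretome, which include amylase and chitinase genes besides cellulase genes. Their summed level was 34018 to 40652 FPKM in WT in cellulose and 124 to 173 FPKM in the 6 glucose libraries of both strains. It was 13287, 218 and 16076 FPKM in the 3 cellulose libraries of the deletion label. The amylase gene *amy15A* alone was at 13285 to 14780 FPKM in WT in cellulose and 353, 56.3 and 592 FPKM in those 3 libraries. The cellulase gene *cel7A* was at 7681 to 12060 FPKM and 3424, 57.7 and 7219 FPKM in the same order. Replicate 2 thus goes against its medium label by these genes as well as against its strain label by *Podot1*. By septin genes, whose products act at hyphal cross-walls, replicate 2 was near Δ*Podot1* in glucose. It held *aspA*, *aspB*, *aspC* and PDE_06826 at 42.0, 59.9, 48.5 and 55.2 FPKM. The lowest WT glucose values were 81.1, 142, 97.15 and 102 FPKM in the same order. The highest Δ*Podot1* glucose values were 41.7, 77.7, 53.4 and 60.9 FPKM. The strain of replicate 2 was not tested further. Results that rest on the cellulose libraries of the deletion label are given per library. Counts over all members are also given without replicate 2 and without both replicates 1 and 2. Fold changes of single genes and calls in function lists mostly leave out replicate 2 at most. Replicate 1, with its *Podot1* reads, stays in those values. The total estimated count was 4607764 to 7081689 per library.

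The members took up a large part of the transcripts in glucose. They held 14.4%, 17.2% and 17.3% of the summed FPKM in the WT glucose libraries and 1.12%, 0.91% and 0.69% in the WT cellulose libraries. Their median level was 198, 239 and 232 FPKM in WT in glucose and 11.5, 10.3 and 9.02 FPKM in WT in cellulose. The mean in glucose ran from 20.8 FPKM to 8146 FPKM, and 31 members were at 1000 FPKM or more. The median fold by which the members were lower in cellulose was 13.9, and the highest was 496. For 31 members it was at least 32 and for 17 at least 100. In all 153 members the 3 glucose libraries lay above the 3 cellulose libraries. The rule chose on these libraries and the share of all genes was not counted, so nothing is read from this. WT replicate 1 stood apart in glucose, as the lowest of the 3 libraries in 85 members and the highest in 51.

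At the edges of the choice lay both low and high genes. The members closest to the floor were PDE_06184 and PDE_06447, with means of 20.8 and 21.6 FPKM in WT in glucose. Just below the floor lay PDE_07035 (17.3 FPKM) and PDE_07821 (15.5 FPKM), which were 9.70-fold and 9.09-fold lower in cellulose. Closest to the fold limit were PDE_05602 (8.09-fold) and PDE_05083 (8.13-fold), and just outside it PDE_04682 and PDE_01808, each 7.99-fold lower. PDE_04682, at a mean of 4078 FPKM in WT in glucose, would have ranked among the highest members. The annotation used here names none of these 8 genes.

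**Figure D1:**
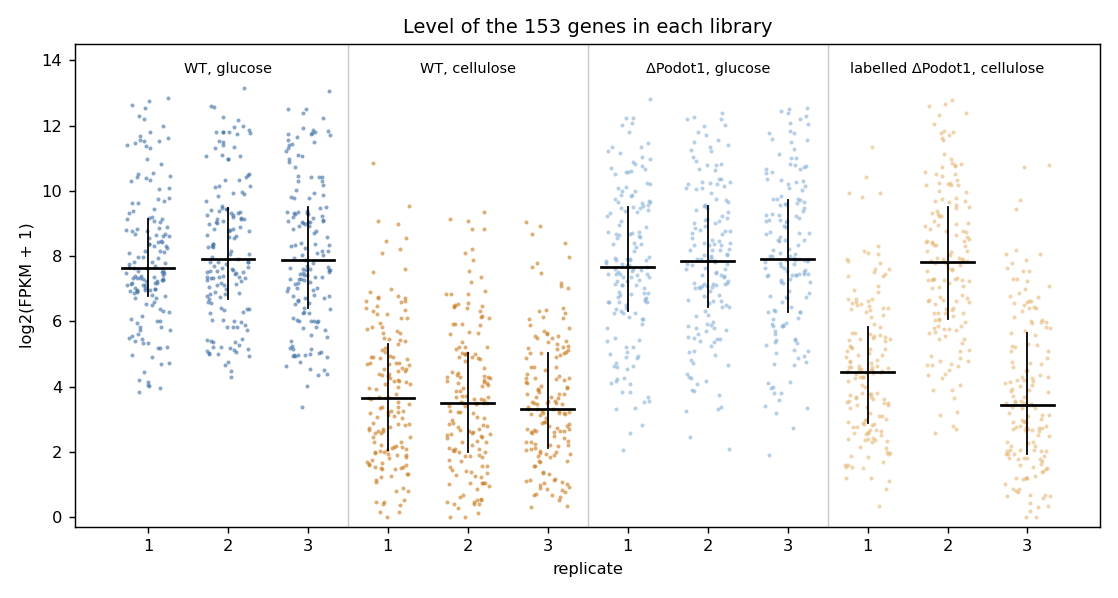
Each point is 1 of the 153 members in 1 library, on the scale log2(FPKM + 1) against the replicate number in the 4 groups; the horizontal line is the median over members and the vertical line the quartiles. In the cellulose libraries of the deletion label, replicates 1 and 3 have medians of 21.0 and 9.80 FPKM and replicate 2 has a median of 225 FPKM, inside the range of the ΔPodot1 glucose libraries from 199.7 to 240.0 FPKM.

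Names came from the annotation in supplementary gene lists of the study, which chose genes on strain differences in these libraries. The lists held 1316 genes in all and 116 of the 153 members, so nothing is read from the latter count. Of these 116 members, 54 had a name, and 99 of all members were not named. The lists named 549 genes in all, and the 54 members are among them. Counts by function below cover named genes alone. They are to be read beside that share, and no function list was tested for an excess of members. Function lists were made by words in the names, so a gene can be in more than 1 list or in none. The phosphoketolase PDE_00638, for example, is in none. The median length was 1388 bases for the members and 1413 bases for all genes at 20 FPKM or more in WT in glucose. The locus tags of 50 members followed each other without a gap in 20 runs of 2 to 5 genes, and 103 members stood alone.

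In Δ*Podot1* in glucose, most members were near their WT level. Together they held 13.2%, 14.1% and 16.4% of the summed FPKM in these libraries. The median log2 ratio of Δ*Podot1* to WT, taken on mean FPKM + 1, was -0.04 over the members and -0.08 over all 5013 genes at 20 FPKM or more in WT in glucose. A total of 94 members stayed within 2-fold, 41 were at least 2-fold lower and 18 at least 2-fold higher. The same counts over the 5013 genes were not made, so these say nothing particular to the members. The mean was at least 20 FPKM in 140 members and lower in 13. WT glucose values chose the members, so no test of this difference is read. By edgeR's quasi-likelihood test 9 members were called lower (4.01% of all genes tested) and 2 higher (4.83% of all genes tested), where called means a Benjamini-Hochberg adjusted p under 0.05 and a change of at least 2-fold. The 3 Δ*Podot1* libraries were without overlap lower than the 3 of WT in 45 members (17.7% of all listed genes) and higher in 34 (21.8%).

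The members farthest below WT in Δ*Podot1* in glucose were a putative cutinase, an enzyme that cleaves plant cutin (PDE_04915), an amino acid transporter (PDE_00830) and PDE_04660. PDE_04915 was at 401, 609.8 and 527 FPKM in WT and 23.1, 15.97 and 11.1 FPKM in Δ*Podot1* in glucose. In cellulose it was at 5.30, 5.97 and 2.69 FPKM in WT and 19.8, 21.6 and 18.2 FPKM in the libraries labelled Δ*Podot1*. The cutinase gene was thus low in every library but the 3 of WT in glucose, and replicate 2 in cellulose did not stand apart. PDE_00830 had 35.4, 102 and 94.3 FPKM in WT in glucose, 4.94, 3.20 and 2.70 FPKM in Δ*Podot1* in glucose and 5.31, 4.94 and 2.47 FPKM in the cellulose libraries of the deletion label. PDE_04660 had 43.2, 94.0 and 77.0 FPKM in WT, 3.11, 4.43 and 5.64 FPKM in Δ*Podot1* in glucose and 2.57, 42.7 and 0.57 FPKM in the cellulose libraries of the deletion label, where replicate 2 alone was high. In all 3 genes the deletion label was already low in glucose.

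Highest against WT were PDE_02469 and the neighbouring genes PDE_06396 and PDE_06397, the last of them a sugar:H+ symporter, a carrier that takes up sugar with protons. PDE_02469 was at 121, 175 and 163 FPKM in WT and 1090.2, 1186 and 1279 FPKM in Δ*Podot1* in glucose, a log2 ratio of 2.94. PDE_06397 was at 125, 142 and 174 FPKM in WT and 1183, 1082 and 185 FPKM in Δ*Podot1*, whose replicate 3 stayed near WT. For PDE_06396 the values were 16.7, 38.0 and 34.3 FPKM and 188, 142 and 115 FPKM. In all 3 genes the lowest Δ*Podot1* library lay above the highest WT library.

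**Figure D2:**
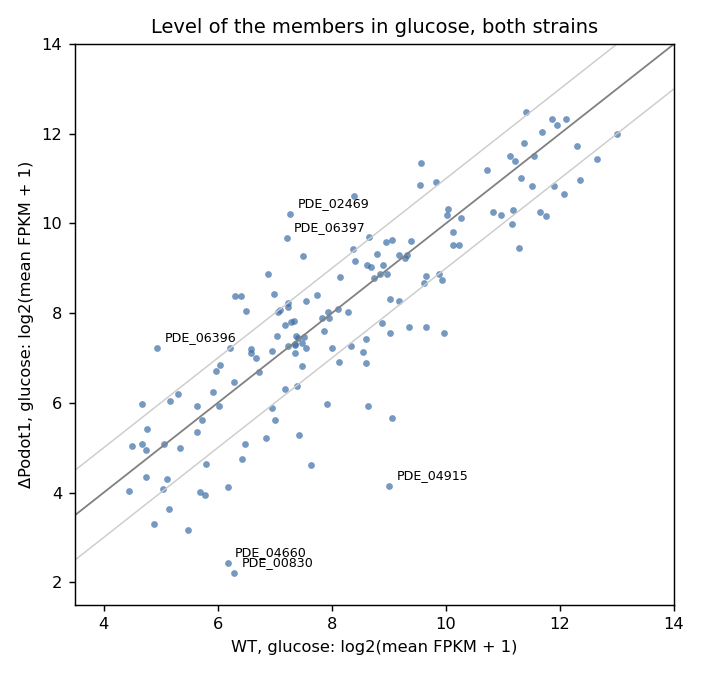
Each point is a member, with log2(mean FPKM + 1) in WT in glucose on the x axis and in ΔPodot1 in glucose on the y axis; the middle line is equality and the outer lines are 2-fold. Of the 153 points, 94 lie between the outer lines, 41 below and 18 above, and the 6 genes with the smallest and largest ratios are named.

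How far the members returned in cellulose under the deletion label differed by library. The return sets 0% at the mean of WT in cellulose and 100% at the mean of WT in glucose, on the scale log2(FPKM + 1). The median return over the 153 members was 19.4% in replicate 1, 92.4% in replicate 2 and 2.29% in replicate 3. The middle 50% of members lay between -1.47% and 35.2% in replicate 1, between 74.6% and 115% in replicate 2, and between -17.0% and 17.7% in replicate 3. A return of at least 50% was reached by 22 members in replicate 1, by 140 in replicate 2 and by 10 in replicate 3. The level in replicate 2 was the highest of the 3 libraries in 148 members, and replicate 1 lay above replicate 3 in 119. The members held 1.84%, 15.1% and 1.44% of the summed FPKM in replicates 1, 2 and 3.

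The return was high in replicate 2, whose glycoside hydrolase genes were the lowest and whose *Podot1* level was the highest of the 3 libraries. *Podot1* and the 10 glycoside hydrolase genes were at 58.4 and 218 FPKM in replicate 2, where the members returned. They were at 33.4 and 13287 FPKM in replicate 1 and at 0 and 16076 FPKM in replicate 3, where most members did not. The median return was 19.4% in replicate 1, which held *Podot1* reads, and 2.29% in replicate 3, which did not. Single libraries cannot show a link of the return to *Podot1* or to the state of the glycoside hydrolase genes. The part of a mixed-up culture or sample in these values was not tested.

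**Figure D3:**
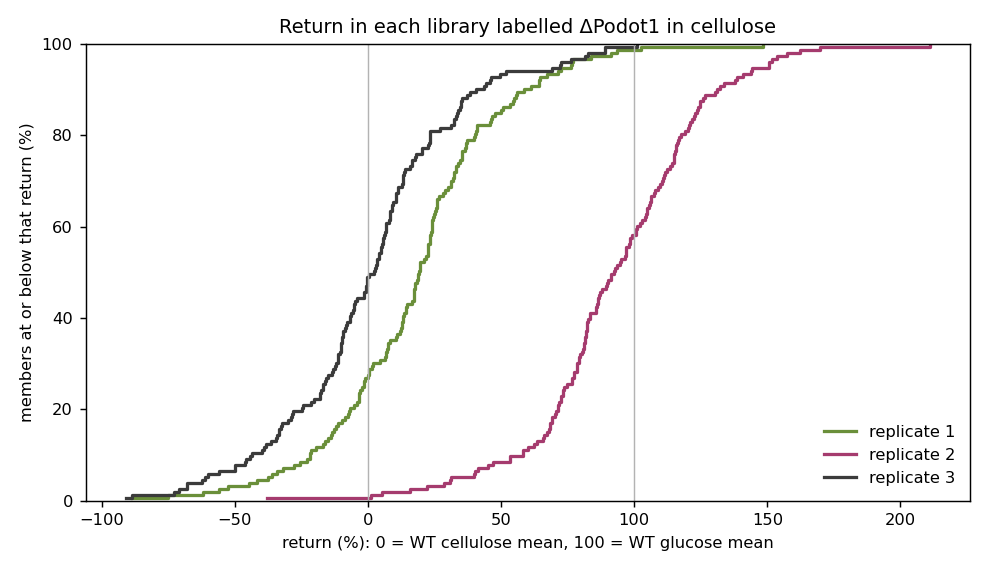
For each library labelled ΔPodot1 in cellulose, the curve gives the percentage of the 153 members (y axis) whose return is at or below the value on the x axis, in percent of the log2 distance from the WT cellulose mean (0) to the WT glucose mean (100). The curve of replicate 2, with a median of 92.4%, lies far to the right of those of replicates 1 and 3, with medians of 19.4% and 2.29%.

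Against Δ*Podot1* in glucose, whose libraries had no part in the choice, the members were low in replicates 1 and 3. Of the 140 members with a mean of at least 20 FPKM in Δ*Podot1* in glucose, 83 were at least 8-fold lower in replicate 1 (4.18% of all 5051 genes at that level), 5 in replicate 2 (0.416%) and 102 in replicate 3 (5.31%). Of all 153 members, with those under 20 FPKM in Δ*Podot1* in glucose included, 81 were at least 8-fold lower in both replicates 1 and 3. The share of all genes was not counted for both libraries together, so nothing is read from this count. Replicates 1 and 3 together lay below all 3 Δ*Podot1* glucose libraries in 144 members, or 94.1% (25.0% of all listed genes). All 3 libraries did so in 50 members, or 32.7% (8.38% of all listed genes). For each of these 50 the two-sided exact permutation test gave p = 0.1, below which groups of 3 cannot go.

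**Figure D4:**
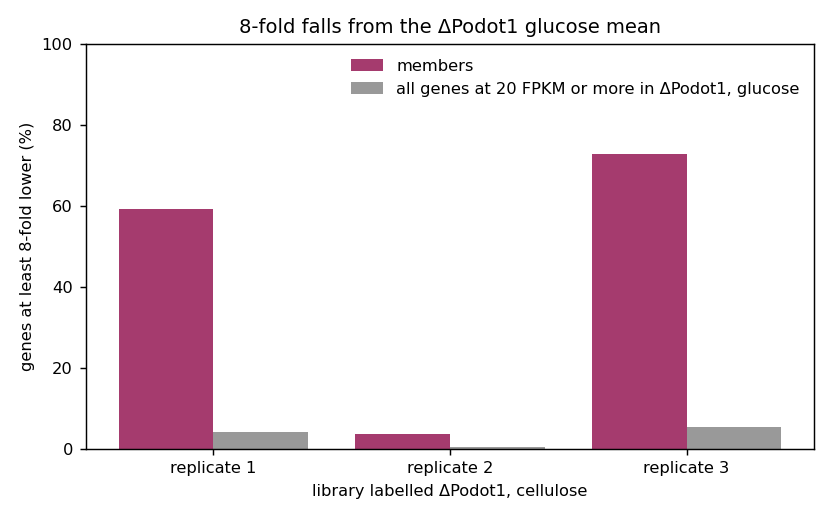
Bars give the percentage of genes at least 8-fold lower than the mean of ΔPodot1 in glucose, on FPKM + 1, in each library labelled ΔPodot1 in cellulose, for the 140 members and for all 5051 genes at 20 FPKM or more in ΔPodot1 in glucose. Members reach 59.3% and 72.9% in replicates 1 and 3 against 4.18% and 5.31% of all genes, and 3.57% in replicate 2 against 0.416%.

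With all 12 libraries in edgeR's quasi-likelihood fit, 24 of the 153 members (15.7%) fell in cellulose against glucose under the deletion label (3.96% of all 9088 genes tested), and 0 rose (13.4% of all genes tested). No member was higher at an unadjusted p under 0.05, and DESeq2 called 0 higher, with no adjusted p for 33 of the 153 members. All 153 passed the filter on low counts. The median log2 fold change was -1.51 over the members and 0.07 over all genes tested. Without replicate 2 in cellulose, 136 members (88.9%) fell (14.4% of all genes tested) and 0 rose (20.5%), with a median log2 fold change of -3.80. The 24 were all among the 136. With replicate 3 as the only cellulose library, so without both libraries that held *Podot1* reads, 135 members (88.2%) fell (13.7% of all genes tested) and 0 rose (16.9%), with a median of -4.48. This fit assumes that the lone library varies like the other groups. Of the 136 and 135 members, 128 were the same genes. A fit on the 6 libraries of the deletion label alone called 3 members lower, of 39 genes in all, and without replicate 1 in cellulose 8 members were called, of 154 genes in all.

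Genes of nitrate assimilation were among the highest members. PDE_00369, PDE_00370 and PDE_00371 follow each other and encode nitrate reductase, which turns nitrate into nitrite, nitrite reductase, which turns nitrite into ammonium, and a nitrate/nitrite transporter. Nitrite reductase was at 6334, 4588 and 4797 FPKM in WT in glucose and 48.5, 35.8 and 40.9 FPKM in WT in cellulose. It was at 1462, 1637 and 2881 FPKM in Δ*Podot1* in glucose and 21.1, 2219 and 6.47 FPKM in the cellulose libraries of the deletion label. Replicate 2 lay within the glucose libraries of Δ*Podot1*, while replicates 1 and 3 lay below every WT cellulose library. The log2 fold change under the deletion label was -1.66 ± 1.43 (SE, adjusted p = 0.441 by edgeR), and -7.33 ± 0.73 (SE, adjusted p = 9.37e-06 by edgeR) without replicate 2.

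Nitrate reductase was at 2936, 2158 and 2390.3 FPKM in WT in glucose and 2.76, 1.06 and 10.3 FPKM in WT in cellulose, which made it 436-fold lower in cellulose. Under the deletion label it was at 492, 542 and 1051 FPKM in glucose and 8.02, 710.3 and 2.46 FPKM in cellulose. The nitrate transporter was at 528, 1142 and 1168 FPKM in WT in glucose, 1.92, 3.87 and 5.52 FPKM in WT in cellulose, 330.3, 287 and 790.3 FPKM in Δ*Podot1* in glucose and 9.30, 284 and 5.80 FPKM in the cellulose libraries of the deletion label. All 3 genes of the run thus had the same order of libraries in cellulose under the deletion label, with replicate 2 high, replicate 1 low and replicate 3 lowest. Without replicate 2 the log2 fold changes of the reductase and the transporter were -7.20 and -6.11 (adjusted p = 0.000182 and 4.93e-05, edgeR). In glucose the means of both reductases were lower in Δ*Podot1* than in WT, with log2 ratios of -1.84 and -1.39.

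Other members handle the ammonium that nitrate reduction yields. PDE_06117, *GdhA*, encodes the NADP-dependent glutamate dehydrogenase, which joins ammonium to 2-oxoglutarate, and its protein is among those that the study captured with *Po*Dot1. Its level was 187, 389 and 438 FPKM in WT in glucose and 24.6, 11.3 and 11.4 FPKM in WT in cellulose. Under the deletion label it was 402, 461 and 856 FPKM in glucose and 18.3, 1162 and 15.1 FPKM in cellulose, so that replicate 2 lay above every glucose library of either strain. The 2 members annotated as ammonium transporters of the Amt family were PDE_00679 and PDE_03587. PDE_00679 was at 105, 332 and 283 FPKM in WT in glucose, 0.73, 0.42 and 1.19 FPKM in WT in cellulose, 31.1, 57.2 and 96.0 FPKM in Δ*Podot1* in glucose and 3.46, 98.8 and 1.65 FPKM in the cellulose libraries of the deletion label. PDE_03587 was at 63.2, 112 and 128 FPKM in WT in glucose, 5.51, 2.70 and 1.20 FPKM in WT in cellulose, 96.4, 88.6 and 196 FPKM in Δ*Podot1* in glucose and 6.79, 143 and 3.85 FPKM in the cellulose libraries of the deletion label. In replicate 2 PDE_03587 was within the glucose range of Δ*Podot1* and PDE_00679 just above it, and both were far below it in replicates 1 and 3. Glutamate synthase (PDE_02386), which passes the nitrogen of glutamine on, returned by 16.4%, 107% and 10.5% in replicates 1, 2 and 3, and tryptophan synthase (PDE_04890) by 25.9%, 92.4% and 32.2%.

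Of the 59 genes of amino acid and nitrogen metabolism that the supplementary lists name, 6 were members. By edgeR 18 of the 59 fell and 5 rose in cellulose in the deletion label over all 12 libraries, and 38 fell and 7 rose without replicate 2. None of the 6 members was among the 18, and all 6 fell without replicate 2. The highest member of all, PDE_01345, encodes a nitric oxide dioxygenase, a flavohaemoglobin that turns nitric oxide into nitrate. It was at 6928, 9033 and 8477 FPKM in WT in glucose, 1852, 648 and 411 FPKM in WT in cellulose, 2577, 4074 and 5618 FPKM in Δ*Podot1* in glucose and 2589, 5164 and 843 FPKM in the cellulose libraries of the deletion label. Unlike the nitrate genes it kept a high level in replicate 1, within the glucose range of Δ*Podot1*, and it was not called without replicate 2 (log2 fold change -1.40 ± 0.69, SE, with an adjusted p of 0.125 by edgeR).

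Genes of pyruvate fermentation and sugar breakdown made up another group. Pyruvate decarboxylase (PDE_04873, *PdcA*), which makes acetaldehyde from pyruvate and whose protein the study also captured with *Po*Dot1, was at 1395, 2165 and 1889 FPKM in WT in glucose and 87.6, 71.1 and 68.7 FPKM in WT in cellulose. Under the deletion label it was at 735, 1327 and 1622 FPKM in glucose and 77.0, 1539 and 55.6 FPKM in cellulose. Its log2 fold change was -1.38 ± 0.97 (SE, adjusted p = 0.347 by edgeR), and -4.35 ± 0.50 (SE, adjusted p = 2.87e-05 by edgeR) without replicate 2. Alcohol dehydrogenase (PDE_09299), which reduces acetaldehyde to ethanol, was at 4019.8, 4074 and 3717 FPKM in WT in glucose and 508, 566 and 335 FPKM in WT in cellulose. In the deletion label it was at 4140.3, 4688 and 5295 FPKM in glucose and 272, 6418 and 235 FPKM in cellulose. Replicate 2 held the highest level of this gene in any of the 12 libraries, and replicates 1 and 3 the lowest.

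Of the 50 named genes of sugar and central carbon metabolism, 6 were members, and all 6 fell without replicate 2 by edgeR. Of the 50 genes, 23 fell and 7 rose in that fit, and 7 fell and 5 rose over all 12 libraries, with no member among them. The median return of these 6 members was 19.7%, 127% and -9.79% in replicates 1, 2 and 3. Trehalose 6-phosphate synthase (PDE_01411), which makes the precursor of the storage sugar trehalose, was at 118, 195 and 225 FPKM in Δ*Podot1* in glucose and 6.25, 154 and 0.57 FPKM in the cellulose libraries of the deletion label. The beta subunit of pyruvate dehydrogenase (PDE_01446), which feeds pyruvate into the citric acid cycle, was the exception among the 6. It returned by 55.6%, 139% and 72.0%, so that it was at least at 50% in every library of the deletion label in cellulose. A phosphoketolase (PDE_00638), which splits sugar phosphates into acetyl phosphate, was at 2647, 2561 and 2770.1 FPKM in WT in glucose and 96.4, 90.5 and 78.5 FPKM in WT in cellulose. Its level was 2802, 3534 and 4351 FPKM in Δ*Podot1* in glucose and 42.3, 3588 and 33.1 FPKM in the cellulose libraries of the deletion label; it was named here after its values were seen.

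A run of 4 genes, PDE_01479 to PDE_01482, shared its order of libraries in the deletion label. It holds PDE_01479, which has no name, an oleate hydratase, which adds water to oleic acid (PDE_01480), a gene annotated as pyruvate, water dikinase (PDE_01481) and L-lactate dehydrogenase, which reduces pyruvate to lactate (PDE_01482). PDE_01479 was at 3258, 2932 and 2723 FPKM in WT in glucose, 105, 78.2 and 135 FPKM in WT in cellulose, 2018, 3038 and 3633 FPKM in Δ*Podot1* in glucose and 23.4, 4199.6 and 10.2 FPKM in the cellulose libraries of the deletion label. L-lactate dehydrogenase was at 90.8, 84.4 and 75.6 FPKM in WT in glucose, 1.84, 1.93 and 3.27 FPKM in WT in cellulose, 248, 337 and 420.3 FPKM in Δ*Podot1* in glucose and 6.96, 536 and 1.60 FPKM in the cellulose libraries of the deletion label. In every gene of the run replicate 2 was the highest and replicate 3 the lowest of the 3 cellulose libraries. The median return of the 4 genes was 2.02%, 121% and -21.6% in replicates 1, 2 and 3. PDE_01479 and PDE_01480 lay below all 3 WT cellulose libraries in replicates 1 and 3, and all 4 lay above the WT glucose mean in replicate 2. Without replicate 2 their log2 fold changes ran from -7.57 (PDE_01479, adjusted p = 1.24e-06, edgeR) to -3.77 (PDE_01481, adjusted p = 0.000268, edgeR).

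Metal uptake was represented by reductases and transporters. Ferric-chelate reductases reduce iron, and in yeast also copper, at the cell surface before uptake. PDE_03439, a ferric-chelate reductase at the end of the run PDE_03436 to PDE_03439, was at 699.8, 656 and 662 FPKM in WT in glucose and 12.5, 19.2 and 66.0 FPKM in WT in cellulose. Under the deletion label it was at 858, 799 and 664 FPKM in glucose and 23.0, 457 and 10.9 FPKM in cellulose, with a log2 fold change of -5.64 ± 0.73 (SE, adjusted p = 7.66e-05 by edgeR) without replicate 2. PDE_03437 of the same run, without a name, was the higher gene, at 2947, 3443 and 3537 FPKM in WT in glucose and 229.9, 3512 and 69.2 FPKM in the cellulose libraries of the deletion label. The run returned by a median of 2.86%, 94.7% and -37.1%. In WT in cellulose, replicate 3 was the highest library for all 4 genes of the run.

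The neighbouring genes PDE_08755 and PDE_08756 encode another ferric-chelate reductase and a copper transporter of the Ctr family. PDE_08756 was at 2001, 2001 and 2024 FPKM in WT in glucose, 2.99, 1.60 and 18.3 FPKM in WT in cellulose, 1098, 1224 and 1179 FPKM in Δ*Podot1* in glucose and 30.2, 817 and 16.8 FPKM in the cellulose libraries of the deletion label. Its glucose libraries agreed closely, and replicate 2 in cellulose lay somewhat below those of Δ*Podot1*. PDE_08755 returned by 22.5%, 101% and 23.3%. A ferric-chelate reductase gene near the run described next, PDE_06091, was at 138, 172 and 204 FPKM in Δ*Podot1* in glucose and 35.3, 157 and 5.88 FPKM in the cellulose libraries of the deletion label, with replicate 1 between the other libraries; it was named after its values were seen. All 7 members of the list for phosphate and metal handling, which also takes in the acid phosphatases PDE_09964 and PDE_02797 that release phosphate, fell without replicate 2, and none was called over all 12 libraries. Of the 25 named genes of that list, 13 fell and 3 rose without replicate 2, and 1 fell and 1 rose over all 12. The 7 members include PDE_07286, an iron-sulfur subunit of a respiratory complex, which is also counted in the list for respiration and mitochondrion.

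The longest run of members, PDE_06094 to PDE_06098, held several of the largest differences between the media in WT, from 24.3-fold for PDE_06098 to 389.6-fold for PDE_06096. PDE_06097, which has no name, was the second highest member, at 7314, 6227 and 5797 FPKM in WT in glucose and 14.8, 10.4 and 55.0 FPKM in WT in cellulose. In the deletion label it was at 2406, 2893 and 2987 FPKM in glucose and 69.8, 3323 and 13.9 FPKM in cellulose. PDE_06095, annotated as a sulfate transporter, was at 198, 313 and 320.4 FPKM in WT in glucose, 0.12, 0.10 and 1.07 FPKM in WT in cellulose, 106, 110.2 and 142 FPKM in Δ*Podot1* in glucose and 1.88, 53.3 and 1.29 FPKM in the cellulose libraries of the deletion label. PDE_06094 was at 434, 539.7 and 580.1 FPKM and 0.12, 0.32 and 1.14 FPKM in WT and at 241, 298 and 407 FPKM and 4.92, 105 and 1.29 FPKM under the deletion label, in glucose and cellulose. Over the 5 genes the median return was 22.6%, 80.8% and 3.38%. PDE_06096 returned by 24.4%, 82.4% and 3.38% and PDE_06098 by 22.6%, 80.8% and -5.45%. In all 5 genes every Δ*Podot1* glucose library lay below every WT glucose library.

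The largest fold of all, 496, was that of PDE_05328, named after its values were seen, which has no name. It was at 1819, 3553 and 3404 FPKM in WT in glucose, 3.46, 3.15 and 8.08 FPKM in WT in cellulose, 1637, 1775 and 2061 FPKM in Δ*Podot1* in glucose and 18.6, 1189 and 10.8 FPKM in the cellulose libraries of the deletion label. Replicate 2 returned by 85.5%, and replicates 1 and 3 stayed above every WT cellulose library.

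PDE_00326 and PDE_00327, a superoxide dismutase of the Fe-Mn family, which removes superoxide, and its neighbour without a name, were 246-fold and 221-fold lower in WT in cellulose. PDE_00326 was at 4756, 3543 and 3194 FPKM in WT in glucose and 6.16, 5.28 and 32.4 FPKM in WT in cellulose. It was at 1649.8, 1774 and 2037 FPKM in Δ*Podot1* in glucose and 22.4, 1829 and 8.02 FPKM in the cellulose libraries of the deletion label. PDE_00327 was at 5988, 3549 and 3434 FPKM in WT in glucose, 7.34, 4.72 and 43.7 FPKM in WT in cellulose, 1512, 1577 and 1735 FPKM in Δ*Podot1* in glucose and 18.8, 1693 and 6.81 FPKM in the cellulose libraries of the deletion label. In both genes WT replicate 3 was the highest of the WT cellulose libraries and replicate 2 of the deletion label was at the glucose level of Δ*Podot1*. Without replicate 2 the log2 fold changes were -7.04 and -7.11 (adjusted p = 6.73e-05 and 0.000131, edgeR).

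PDE_02095 and PDE_07836, also among the 8 highest members in WT in glucose, have no name. PDE_02095 was at 3153, 6069 and 5799.7 FPKM in WT in glucose, 542, 449 and 200.2 FPKM in WT in cellulose, 1745, 3358 and 5066 FPKM in Δ*Podot1* in glucose and 972, 1824 and 83.6 FPKM in the cellulose libraries of the deletion label. PDE_07836 was at 3025, 4869.8 and 5326 FPKM in WT in glucose, 737, 541 and 249 FPKM in WT in cellulose, 4836, 4755 and 5948 FPKM in Δ*Podot1* in glucose and 890.1, 6216 and 689.9 FPKM in the cellulose libraries of the deletion label. Replicate 2 was within the glucose range of Δ*Podot1* for the former and above it for the latter, replicate 1 was lower, and replicate 3 was lowest.

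The remaining runs of 3 were PDE_01232 to PDE_01234, whose middle gene is annotated as an FAD-dependent monooxygenase, and PDE_01425 to PDE_01427. Their median returns were 26.0%, 92.9% and -10.4% for the former and 21.8%, 68.1% and -6.92% for the latter. PDE_01234 was at 28.8, 44.5 and 39.9 FPKM in Δ*Podot1* in glucose and 6.44, 131 and 0.59 FPKM in the cellulose libraries of the deletion label, so that replicate 2 was above the glucose level. PDE_01426 was at 13.4, 20.1 and 9.67 FPKM and 9.21, 8.35 and 2.85 FPKM, with replicate 2 near replicate 1.

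Among the members of energy metabolism, 2 stayed high in every cellulose library of the deletion label. PDE_02785, a mitochondrial ADP/ATP translocator, which exchanges the nucleotides across the inner membrane, was at 795, 3516 and 3371 FPKM in WT in glucose and 374, 233 and 177 FPKM in WT in cellulose. It was at 1796, 1932 and 2482 FPKM in Δ*Podot1* in glucose and 1372, 2019 and 1680.1 FPKM in the cellulose libraries of the deletion label. All 3 of the latter libraries lay above the WT cellulose libraries, and they overlapped the glucose libraries of the deletion label. PDE_01674, the plasma membrane H+-ATPase that drives uptake of nutrients, was at 1070.3, 2916 and 2871 FPKM in WT in glucose, 351, 184 and 80.8 FPKM in WT in cellulose, 793, 970.3 and 1273 FPKM in Δ*Podot1* in glucose and 967, 1148 and 1753 FPKM in the cellulose libraries of the deletion label. Here replicate 3, the library without *Podot1* reads, was the highest of the 3. Neither gene was called, with log2 fold changes of -0.46 (standard error 0.59) and 0.19 (standard error 0.65) over all 12 libraries and adjusted p of 0.612 and 0.865 (edgeR), and of 0.473 and 0.731 without replicate 2.

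The subunits of the cytochrome bc1 complex, which passes electrons to cytochrome c, lay between. The iron-sulfur subunit (PDE_07286) was at 456, 703 and 704 FPKM and 78.9, 87.6 and 49.1 FPKM in WT in glucose and cellulose. The deletion label had 537, 555 and 713 FPKM and 194, 885 and 184 FPKM. Core subunit 2 (PDE_09131) was at 181, 587 and 656 FPKM and 38.9, 58.4 and 31.5 FPKM in WT and at 474, 515 and 612 FPKM and 166, 854 and 149.6 FPKM under the deletion label. In both, every library labelled Δ*Podot1* in cellulose lay above every WT cellulose library, and replicates 1 and 3 lay below the glucose libraries of Δ*Podot1*. The 4 members of the list for respiration and mitochondrion had median returns of 51.0%, 121% and 47.6%. Without replicate 2, 3 of these 4 members fell. Of the 35 named genes of that list, 16 fell and 1 rose without replicate 2, and 2 fell and 0 rose over all 12 libraries.

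In 9 members the return was at least 50% in both replicates 1 and 3, and in 130 it was under 50% in both. By the lower of these values the highest were PDE_06397, PDE_02785, PDE_00528 and PDE_04583. PDE_06397 returned by 93.7%, 109.8% and 82.6% in replicates 1, 2 and 3, and PDE_02785 by 72.6%, 89.6% and 81.5%. PDE_00528 returned by 67.2%, 97.0% and 72.6%, and PDE_04583 by 64.7%, 144% and 89.0%. PDE_06397, the sugar:H+ symporter, was at 124, 190.5 and 92.5 FPKM in cellulose, close to its WT glucose level, and fell against its own higher level in Δ*Podot1* in glucose (log2 fold change -2.74 ± 0.66, SE, with an adjusted p of 0.0143 by edgeR). PDE_00528 was at 13.2, 35.7 and 29.6 FPKM in WT in glucose, 4.44, 0.48 and 1.97 FPKM in WT in cellulose and 12.6, 24.5 and 14.2 FPKM in the cellulose libraries of the deletion label, a low gene. PDE_04583 was at 129, 126 and 121 FPKM in WT in glucose, 330.3, 333 and 362 FPKM in Δ*Podot1* in glucose and 55.2, 344 and 97.1 FPKM in the cellulose libraries of the deletion label. Replicate 2 was within the glucose range of Δ*Podot1* for PDE_04583, and replicates 1 and 3 were below it.

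At the other end, PDE_05305, PDE_05373, PDE_05602 and PDE_04660 had the smallest values by the lower of their returns in replicates 1 and 3. PDE_05305 encodes a carboxypeptidase D, which trims the ends of proteins. It was at 467, 634 and 486 FPKM in WT in glucose, 74.2, 86.1 and 8.40 FPKM in WT in cellulose, 43.4, 48.3 and 56.9 FPKM in Δ*Podot1* in glucose and 9.74, 23.5 and 6.56 FPKM in the cellulose libraries of the deletion label. It was the only member whose return was below 0 in replicate 2 (-38.1%). PDE_05373 was at 15.96, 10.3 and 2.26 FPKM in WT in cellulose, 17.1, 42.8 and 48.0 FPKM in Δ*Podot1* in glucose and 0.26, 61.4 and 0.26 FPKM in the cellulose libraries of the deletion label. PDE_05602 was at 28.8, 13.5 and 10.2 FPKM in WT in cellulose, 286, 319.6 and 287 FPKM in Δ*Podot1* in glucose and 5.17, 432 and 3.03 FPKM in the cellulose libraries of the deletion label. In the last 2 genes replicates 1 and 3 lay below every WT cellulose library, while replicate 2 lay above every Δ*Podot1* glucose library.

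A few members were low in replicate 2 as well. PDE_01187, annotated as a multidrug transporter of the DHA2 family, which exports small molecules, was at 406, 284 and 319 FPKM in WT in glucose and 35.4, 31.2 and 19.1 FPKM in WT in cellulose. It was at 2265, 1305 and 1121 FPKM in Δ*Podot1* in glucose and 20.2, 29.5 and 19.5 FPKM in the cellulose libraries of the deletion label. The 3 cellulose libraries lay together at the WT cellulose level, and the log2 fold change under the deletion label was -6.24 ± 0.48 (SE, adjusted p = 7.22e-05 by edgeR). PDE_01191 was at 1351, 374 and 531 FPKM in WT in glucose, 3594, 2381 and 1799 FPKM in Δ*Podot1* in glucose and 23.6, 75.5 and 16.4 FPKM in the cellulose libraries of the deletion label, with a log2 fold change of -6.26 ± 0.72 (SE, adjusted p = 0.00115 by edgeR). These 2 genes and PDE_05305 had the lowest returns in replicate 2, at 1.23%, 5.32% and -38.1%. These genes were thus low in replicate 2 although its glycoside hydrolase level, 218 FPKM, was near that of the glucose libraries.

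The highest returns in replicate 2 were those of PDE_06050, PDE_06447 and PDE_02469, at 211%, 169.9% and 162%. PDE_06050 was at 77.9, 79.7 and 74.7 FPKM in WT in glucose, 89.8, 92.6 and 79.5 FPKM in Δ*Podot1* in glucose and 82.6, 1199 and 5.65 FPKM in the cellulose libraries of the deletion label. Its level in replicate 2 was far above every other library, in replicate 1 near the glucose level and in replicate 3 far below it, with 5.77, 5.31 and 6.15 FPKM in WT in cellulose. It had the highest log2 fold change of all members over all 12 libraries, 2.07 ± 1.12 (SE, adjusted p = 0.217 by edgeR), and without replicate 2 it was -1.13. PDE_06447 was at 25.5, 33.2 and 37.6 FPKM in Δ*Podot1* in glucose and 5.74, 112 and 0.82 FPKM in the cellulose libraries of the deletion label.

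Genes of membrane lipids were lower in replicates 1 and 3 than in replicate 2. Methylsterol monooxygenase (PDE_05808) and squalene monooxygenase (PDE_09649) act in the synthesis of ergosterol, the sterol of fungal membranes. PDE_05808 was at 874, 2005 and 2194 FPKM in WT in glucose, 83.1, 59.1 and 45.4 FPKM in WT in cellulose, 1524, 2431 and 3078 FPKM in Δ*Podot1* in glucose and 119, 3159 and 221 FPKM in the cellulose libraries of the deletion label. PDE_09649 returned by 33.2%, 115% and 45.8%. A ceramide fatty acyl hydroxylase of sphingolipid synthesis (PDE_00525) returned by 10.5%, 81.4% and 16.7%. Phosphatidylserine decarboxylase (PDE_01249), which makes phosphatidylethanolamine, had a replicate 1 close to replicate 2, with 233, 139 and 109 FPKM in Δ*Podot1* in glucose and 84.0, 100.4 and 10.3 FPKM in the cellulose libraries of the deletion label. All 3 members of the list for lipid and sterol metabolism fell without replicate 2 and none over all 12 libraries; of its 30 named genes 17 fell and 4 rose without replicate 2, and 2 fell and 1 rose over all 12.

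The largest list was transport across membranes, with 12 members among 65 named genes. Over all 12 libraries 2 of the 12 fell, PDE_01187 and PDE_06397, and 10 fell without replicate 2, all but PDE_01674 and PDE_00830. Of the 65 genes, 7 fell and 13 rose over all 12 libraries, and 20 fell and 16 rose without replicate 2. The median return of the 12 was 19.2%, 79.7% and 7.41%. An allantoate permease gene (PDE_06884), whose product takes up a nitrogen-rich purine breakdown product, was at 123, 163 and 179 FPKM in WT in glucose, 11.9, 16.6 and 11.8 FPKM in WT in cellulose, 161, 210.4 and 299 FPKM in Δ*Podot1* in glucose and 5.12, 334 and 4.70 FPKM in the cellulose libraries of the deletion label. Another sugar:H+ symporter gene (PDE_03140) was at 225, 635 and 618 FPKM in WT in glucose, 3.03, 2.59 and 3.52 FPKM in WT in cellulose, 829, 712 and 765 FPKM in Δ*Podot1* in glucose and 10.2, 641 and 6.72 FPKM in the cellulose libraries of the deletion label. Replicate 2 was the highest and replicate 3 the lowest cellulose library of the deletion label for both. Cytochrome P450 and other monooxygenases had 4 members among 22 named genes, of which 9 fell and 4 rose without replicate 2, all 4 members among the former. Peptidases (15 named genes), chaperones and stress proteins (15) and transcription and signalling (24) had 1 member each, and ribosome and translation (20 named genes) and cell wall and polysaccharide enzymes (55 named genes) had 0 members. The member in the list for transcription and signalling was PDE_01481, annotated as pyruvate, water dikinase. It is a metabolic enzyme that is also counted under sugar and central carbon metabolism.

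Thiamine synthesis was seen in a pair of members named after their values were seen. Thiamine thiazole synthase (PDE_07008) and a pyrimidine precursor enzyme (PDE_09900) make the 2 rings of the vitamin. PDE_07008 was at 1467, 2723 and 2542 FPKM in WT in glucose, 193, 272 and 219.8 FPKM in WT in cellulose, 2621, 2613 and 3499 FPKM in Δ*Podot1* in glucose and 316, 7121 and 115 FPKM in the cellulose libraries of the deletion label. PDE_09900 was at 3577, 3762 and 3863 FPKM in WT in glucose, 294, 456 and 527 FPKM in WT in cellulose, 4789, 4904 and 5799.7 FPKM in Δ*Podot1* in glucose and 264, 5398 and 266 FPKM in the cellulose libraries of the deletion label. Replicate 2 was above every other library for PDE_07008 and within the glucose range of Δ*Podot1* for PDE_09900, for which replicates 1 and 3 lay below every WT cellulose library.

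Without replicate 2, 17 members were not called. Besides PDE_01345, PDE_02785 and PDE_01674 they held the cutinase and amino acid transporter genes PDE_04915 and PDE_00830, which were already low in Δ*Podot1* in glucose, and PDE_01230, annotated as a diphthamide biosynthesis protein. The other 11 have no name, and their adjusted p ran from 0.0521 for PDE_01426 to 0.843 for PDE_06092 (edgeR). Log2 fold changes of these 17 ran from -2.15 for PDE_02130 to 0.30 for PDE_01674.

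Set against WT in cellulose, 87 members were called higher in the libraries labelled Δ*Podot1* (14.3% of all genes tested) and 1 lower (10.8% of all genes tested) by edgeR over all 12 libraries. WT cellulose values chose the members, so nothing is read from these counts. Per library, 98 members lay above all 3 WT cellulose libraries in replicate 1 (44.8% of all listed genes), 150 in replicate 2 (45.5%) and 53 in replicate 3 (36.2%). Those below all 3 were 24 (29.7% of all listed genes), 0 (34.9%) and 47 (36.4%). The number of members called higher was 36 without replicate 2, where 1273 of all 9136 genes tested were called. It was 15 with replicate 3 as the only library, where 1074 of all 9216 genes tested were called.

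**Figure D5:**
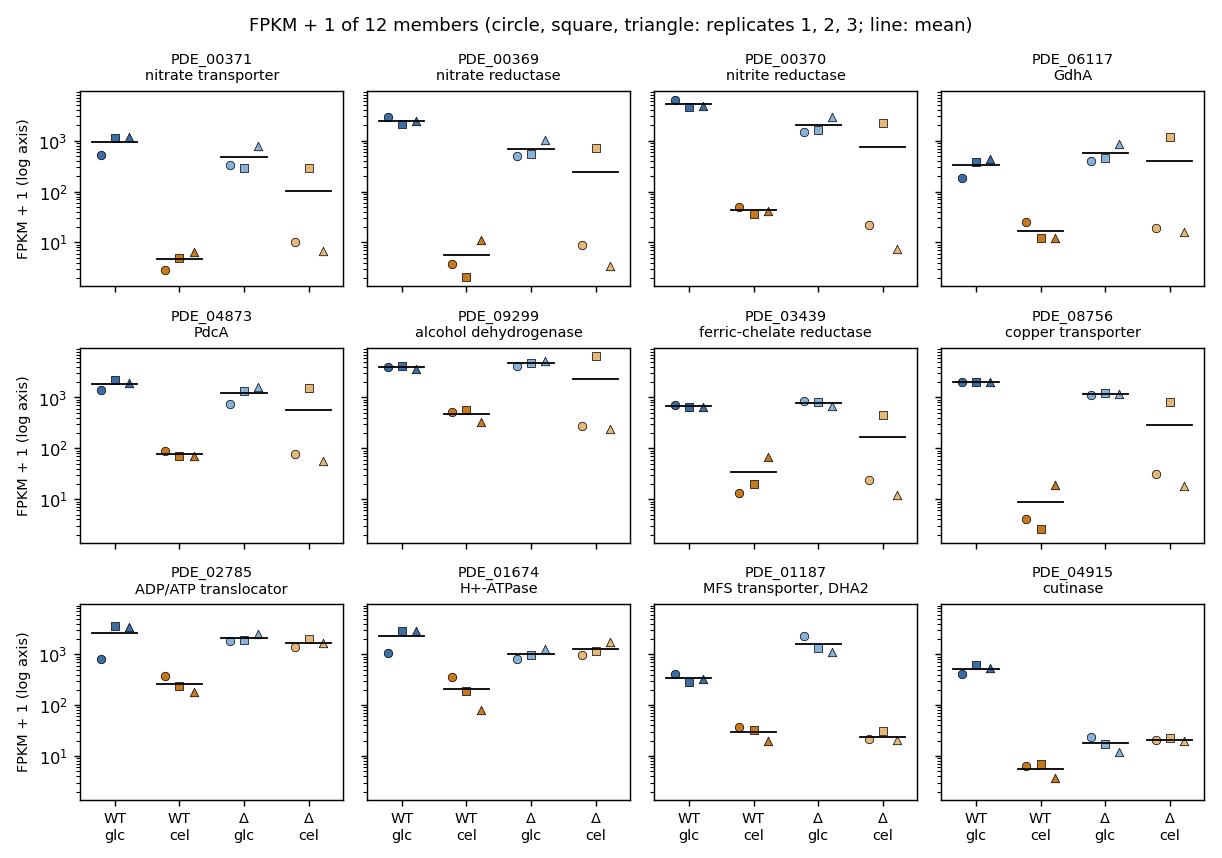
FPKM + 1 on a log axis for 12 named members in the 4 groups (WT and libraries labelled ΔPodot1, Δ, in glucose, glc, and cellulose, cel), with circles, squares and triangles for replicates 1, 2 and 3 and a line at the mean. In the upper 8 genes replicate 2 lies near the glucose level and replicates 1 and 3 lie far below it; the ADP/ATP translocator and H+-ATPase genes stay high in all 3, PDE_01187 is low in all 3, and the cutinase gene is low in both media under the deletion label.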

How the data were processed

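RNA-seq values of 12 libraries were used. Per the labels and the methods of the study, the authors mapped reads to the *P. oxalicum* genome with HISAT and to its transcripts with Bowtie2. The labels describe tag profiling and the methods describe RNA-seq. For each gene the authors deposited an estimated count and an FPKM value. The FPKM values were used as deposited, with genes absent from a library taken as 0. Estimated counts were rounded (0.713% were not whole). The precision is set by 4607764 to 7081689 estimated counts per library and by 3 replicates per group, called biological replicates in the methods; whether these were separate cultures is not given in the sources used here, so p-values measure the spread between these libraries, which may be technical in part.

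Members were taken from the mean FPKM of WT (at least 20 in glucose, at least 8-fold lower in cellulose with a pseudocount of 1). The members and gene lists were chosen with earlier results of these data known. Counts were tested in edgeR 4.0.16 (R 4.3.3; filterByExpr, TMM, quasi-likelihood test, 1 mean per group over all 12 libraries), with Benjamini-Hochberg adjustment over 9088 genes; a gene was called at an adjusted p under 0.05 and at least 2-fold. The test was also run on simulated counts in which no replicate stood apart from its group. Such counts cannot show how it behaves with a library such as replicate 2 of the deletion label in cellulose. Single values were compared by exact permutation tests. DESeq2 1.42.0 and limma 3.58.1 on log2(FPKM + pseudocount) were alternatives, with other filters, scalings, pseudocounts and left-out libraries.

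Genes were named by rule: the 8 highest members in WT in glucose, the 3 largest and 3 smallest ratios between strains in glucose, the 4 highest and 4 lowest returns in replicates 1 and 3, the 3 highest and 3 lowest in replicate 2, the 3 highest members of each function list with at least 3 members, the runs of at least 3 locus tags, and the 2 genes on either side of each threshold. Members that the study captured with *Po*Dot1 were added. Other genes named complete a list or a function and were chosen after their values were seen. Gene names and functions come from the annotation in the study's supplementary lists. Sequences and positions were not analysed here.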

Additional observations from a re-analysis of the deposited data

How the results depend on the processing

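The set of members depended on its thresholds: 423 genes met a 4-fold limit, 68 a 16-fold limit and 89 the 8-fold limit with a pseudocount of 10, and 138 to 185 did when 1 WT library was left out. Median returns kept their place under every alternative run, at 12.3% to 21.9% in replicate 1, 86.2% to 101% in replicate 2 and -0.21% to 2.96% in replicate 3. The number of members at least 8-fold lower in replicate 2 was 3 with a pseudocount of 10, against 5.

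The number of members called lower in cellulose against glucose under the deletion label was 24 (360 of all genes). It was 40 with DESeq2 (512 of all genes), which gave 33 members no adjusted p. With limma at pseudocounts of 0.1, 1 and 10 it was 54, 55 and 50 (338, 357 and 264 of all genes). It was 14 with library size scaling alone (240 of all genes). It was 3 with only the 6 libraries compared (39 of all genes) and 135 without both libraries with *Podot1* reads (1263 of all genes). Leaving out 1 library gave 8 to 136 (154 and 1315 of all genes). Replicate 2 of the deletion label in cellulose made most of this range: the lowest count belongs to leaving out replicate 1 of that group. An alternative chosen after seeing the data, the deletion label alone without replicate 2, gave 133.

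In glucose, the 9 members called lower in Δ*Podot1* than in WT were 36 with only the 6 libraries compared, 31 without both libraries with *Podot1* reads and 3 to 25 with 1 library left out. Calls over all genes moved too, from 364 to 612 with the 6 libraries and 660 without both. The 2 called higher were 6 with DESeq2, 1 with limma at a pseudocount of 0.1 or 1, 15 with only the 6 libraries, 13 without both libraries and 0 to 12 with 1 left out, while calls over all genes went from 439 to 905 with the 6 libraries and 922 without both. In cellulose, the 87 called higher (1304 of all genes) were 43, 39 and 26 with limma at 0.1, 1 and 10 (1110, 1076 and 592 of all genes). They were 5 with only the 6 libraries (192 of all genes) and 21 to 125 with 1 left out (511 and 1628 of all genes). The 1 called lower was 0 with limma at each pseudocount and with only the 6 libraries, 17 without both libraries and 0 to 16 with 1 left out.

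Groups share replicate numbers. Same-numbered libraries of the deletion label in both media had deviations that correlated at 0.03, -0.07 and -0.18 across genes. In the other pairs of groups the correlations ran from -0.12 to 0.18. Replicate 2 stands apart in the cellulose group, so these values cannot tell whether same-numbered libraries share a batch. With a replicate block 26 members were called lower under the deletion label (323 of all genes). In that fit 1 was called higher in glucose (342 of all genes) and 44 higher in cellulose (960 of all genes). The log2 fold change under the deletion label reversed for PDE_04660 (1 library left out, -1.62 to 2.11, the former without replicate 2; -3.02 without both libraries with *Podot1* reads), PDE_06050 (-4.04 without both), PDE_06447 (-3.43 to 0.63 with 1 library left out, the former without replicate 2; -3.42 with the deletion label alone and without replicate 2, -5.36 without both) and PDE_01234 (-3.57 to 0.62, -3.55 and -6.08 in the same order). The cause of these changes beyond the libraries left out was not tested. Depth limits the lowest members, and 3 libraries per group limit every exact test to p = 0.1.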
